A study of Homo sapiens with 6 samples.

Results

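The genes described here are 37 human genes of glucose metabolism, chosen by name from the 58381 genes of the count table. They encode the hexose transporters, the enzymes of glycolysis, the makers and carriers of lactate, the gate through which pyruvate enters the mitochondrion, 3 enzymes of the pentose phosphate pathway, and the oxygen-sensitive transcription factor subunit HIF1A. Each symbol was matched to its Ensembl identifier. The rule that selects them uses no measured value, but the list was drawn up with earlier results of these data known. RNA was sequenced from MOLM-13 cells after 20 h in 5 µM DB2115 and, as the comparison group, after 20 h in vehicle, which was 0.001% DMSO. MOLM-13 is an established human acute myeloid leukaemia line with an MLL-AF9 fusion and a FLT3 internal tandem duplication, so both groups share these lesions and the results come from 1 line. DB2115 is known here only by its code name, and the series title names PU.1, the myeloid transcription factor encoded by SPI1.

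Glycolysis breaks glucose down to pyruvate in the cytosol, and many of its steps are catalysed by any of several isozymes encoded by different genes. Pyruvate is then either reduced to lactate, which leaves the cell through monocarboxylate transporters, or oxidised by the mitochondrial pyruvate dehydrogenase complex, which pyruvate dehydrogenase kinases switch off. The pentose phosphate pathway branches off at glucose 6-phosphate and supplies NADPH and ribose. In proliferating leukaemia cells this network is known to be driven in part by the transcription factors MYC, which binds E-boxes, and HIF-1, which binds hypoxia response elements.

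The promoters of 5 members are shown: the 3 hexokinases and PDK2, whose family shares changed, and LDHA, which fell without such a change and carries the same E-box as HK2. They were picked by hand. The shares of PDK1 and SLC2A6 changed too, and their windows, which hold no CACGTG, are not shown. Each is the RefSeq window on GRCh38.p14 from 250 bases before to 50 bases after an annotated start, 300 bases in all, written 5′ to 3′ along the gene's own strand. Capitals mark CACGTG, the palindromic E-box, in HK2, LDHA and PDK2. In HK1 they mark ACTTCCTC, the reverse complement of the PU.1-type motif GAGGAAGT, and the HK3 window has no exact match to either. Only exact matches were searched, so near matches, such as aaggaagt in HK3, stay in small letters. The windows lie at chr2:74834920-74835219 for HK2 (plus strand), chr10:69317931-69318230 for HK1 (plus strand), chr5:176899297-176899596 for HK3 (minus strand), chr11:18394313-18394612 for LDHA (plus strand) and chr17:50095101-50095400 for PDK2 (plus strand).
HK2: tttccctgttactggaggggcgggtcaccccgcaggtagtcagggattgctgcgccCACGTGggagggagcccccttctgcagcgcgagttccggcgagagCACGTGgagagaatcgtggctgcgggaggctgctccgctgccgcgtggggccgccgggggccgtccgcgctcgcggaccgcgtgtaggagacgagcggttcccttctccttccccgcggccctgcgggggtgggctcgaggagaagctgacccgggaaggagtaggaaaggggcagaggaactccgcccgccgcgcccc
HK1: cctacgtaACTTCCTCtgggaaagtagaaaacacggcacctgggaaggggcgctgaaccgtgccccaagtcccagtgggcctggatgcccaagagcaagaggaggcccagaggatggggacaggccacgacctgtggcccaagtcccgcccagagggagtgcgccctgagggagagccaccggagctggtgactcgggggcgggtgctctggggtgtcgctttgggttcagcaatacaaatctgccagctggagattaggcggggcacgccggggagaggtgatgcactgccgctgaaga
HK3: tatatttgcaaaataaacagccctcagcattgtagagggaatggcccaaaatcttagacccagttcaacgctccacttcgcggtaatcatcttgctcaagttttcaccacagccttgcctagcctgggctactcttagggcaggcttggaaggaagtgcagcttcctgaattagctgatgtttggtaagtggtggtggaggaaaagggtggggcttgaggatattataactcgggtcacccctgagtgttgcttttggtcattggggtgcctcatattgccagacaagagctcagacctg
LDHA: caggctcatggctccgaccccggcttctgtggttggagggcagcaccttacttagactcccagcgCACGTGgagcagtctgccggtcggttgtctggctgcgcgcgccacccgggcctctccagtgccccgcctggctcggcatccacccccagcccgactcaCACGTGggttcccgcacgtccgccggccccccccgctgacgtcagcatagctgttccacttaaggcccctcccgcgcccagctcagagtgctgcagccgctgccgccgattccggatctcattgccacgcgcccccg
PDK2: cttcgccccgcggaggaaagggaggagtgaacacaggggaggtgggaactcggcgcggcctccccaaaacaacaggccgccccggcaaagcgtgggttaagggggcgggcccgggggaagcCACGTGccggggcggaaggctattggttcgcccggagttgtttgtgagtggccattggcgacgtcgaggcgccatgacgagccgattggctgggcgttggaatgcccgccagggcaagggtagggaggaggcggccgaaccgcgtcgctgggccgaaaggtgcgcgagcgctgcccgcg

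Windows were listed for 34 of the 37 members, 63 windows in all. CACGTG, searched on both strands, was in the windows of 8 members (23.5%), namely ALDOA, ALDOC, GAPDH, HK2, LDHA, PDHB, PDK2 and PFKFB3, against 8.77% of the 27305 genes with a window. Per window the shares were 12.7% of the members' windows and 7.26% of all 35116. ACGTG or GCGTG, the core of the hypoxia response element and present in every CACGTG, was in the windows of 29 members (85.3%) and of 52.4% of all genes. GAGGAAGT was found in HK1 only, which is 2.94% of the members with a window, against 3.15% of all genes. TATAAA, the TATA box, was in 6 members (17.6%) and 14.0% of all genes. Of the 8 members with CACGTG, PDK2 rose, 4 fell (ALDOA, GAPDH, HK2 and LDHA) and 3 did not pass the test. Over all genes tested, 32.7% were higher and 31.3% lower. The fall of ALDOA was small and lost its call under several of the alternatives described below. A match describes the letters in this window and was not tested against the change in expression.

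The labels list 3 replicates per group, but only 4 libraries were analysed, 2 per group. They are named A and B after their columns, which are tied to a group and not to a labelled replicate. The third column of each group held the sum of the other columns and was left out. Total counts were 40067286 and 39647758 in the DB2115 libraries and 36547900 and 42446253 in the vehicle libraries. Levels are CPM, the standard scaling of a gene's counts to the library total, here with TMM factors, and a gene was called when the adjusted p of edgeR's quasi-likelihood test, over 17219 genes, was under 0.05. Nothing in the labels states whether A and B were separate cultures, and the p-values therefore reflect only how these 4 libraries vary, which may be technical variation. All changes are relative to the RNA sequenced, and in bulk RNA fewer cells of a type and less RNA per cell cannot be told apart. Mitochondrial transcripts took 7.65% and 6.93% of counts with DB2115 and 4.91% and 5.64% in vehicle. All 11 markers of the myeloid leukaemia line were detected. The summed level of 18 macrophage and neutrophil markers was 487 to 578 CPM with DB2115 and 78.6 to 79.1 CPM in vehicle, 10 of the 12 tested were higher and none lower, and MRC1 was at 0. Among markers of other lineages, the summed level was 19.6 to 23.5 CPM with DB2115 and 4.21 to 4.38 CPM in vehicle for 5 T cell genes. It was 24 to 26 CPM with DB2115 and 50.2 to 51.8 CPM in vehicle for 5 B cell genes, although of the 4 tested 3 were higher and 1 lower. For 6 epithelial, stromal and endothelial genes the sum was 38.1 to 48.0 CPM with DB2115 and 4.77 to 11.1 CPM in vehicle. The 5 erythroid genes summed to at most 0.440 CPM with DB2115 and 0.121 CPM in vehicle. The part of these shifts in the results below was not tested.

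With DB2115 the network did not move one way. HK2 fell while HK1 and HK3 rose at the first step, and PDK1 fell while PDK2 rose among the pyruvate dehydrogenase kinases. GAPDH, PGK1, ENO1 and both lactate dehydrogenases fell, PKM rose, and 3 of the 4 hexose transporters rose. Of the 37 members, 35 had enough counts to be tested, 13 rose, 13 fell and 9 did not pass the test. Over all 17219 genes tested, 32.7% were higher and 31.3% lower, so these counts are near the background. At least 2-fold changes were found in 4 members that rose, against 17.5% of all genes, and in 5 that fell, against 9.53% of all genes. Both DB2115 libraries lay above both vehicle libraries in 13 members, against 42% of all genes, and below both in 15, against 39.4% of all genes. The median log2 fold change was -0.05 over the members and 0.03 over all genes tested, and the median size of the change, whatever its sign, was 0.39 for members and 0.56 for all genes. With an offset for GC content and length the split became 10 higher and 19 lower, against 5426 higher and 5693 lower of all 17200 genes tested in that fit. Without vehicle library B, which left 1 vehicle library, the median log2 fold change was -0.09 over the members and 0.06 over all genes. Together the members held 1.51% and 1.65% of all counts in the DB2115 libraries and 1.87% and 1.84% in the vehicle libraries.

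**Figure D1:**
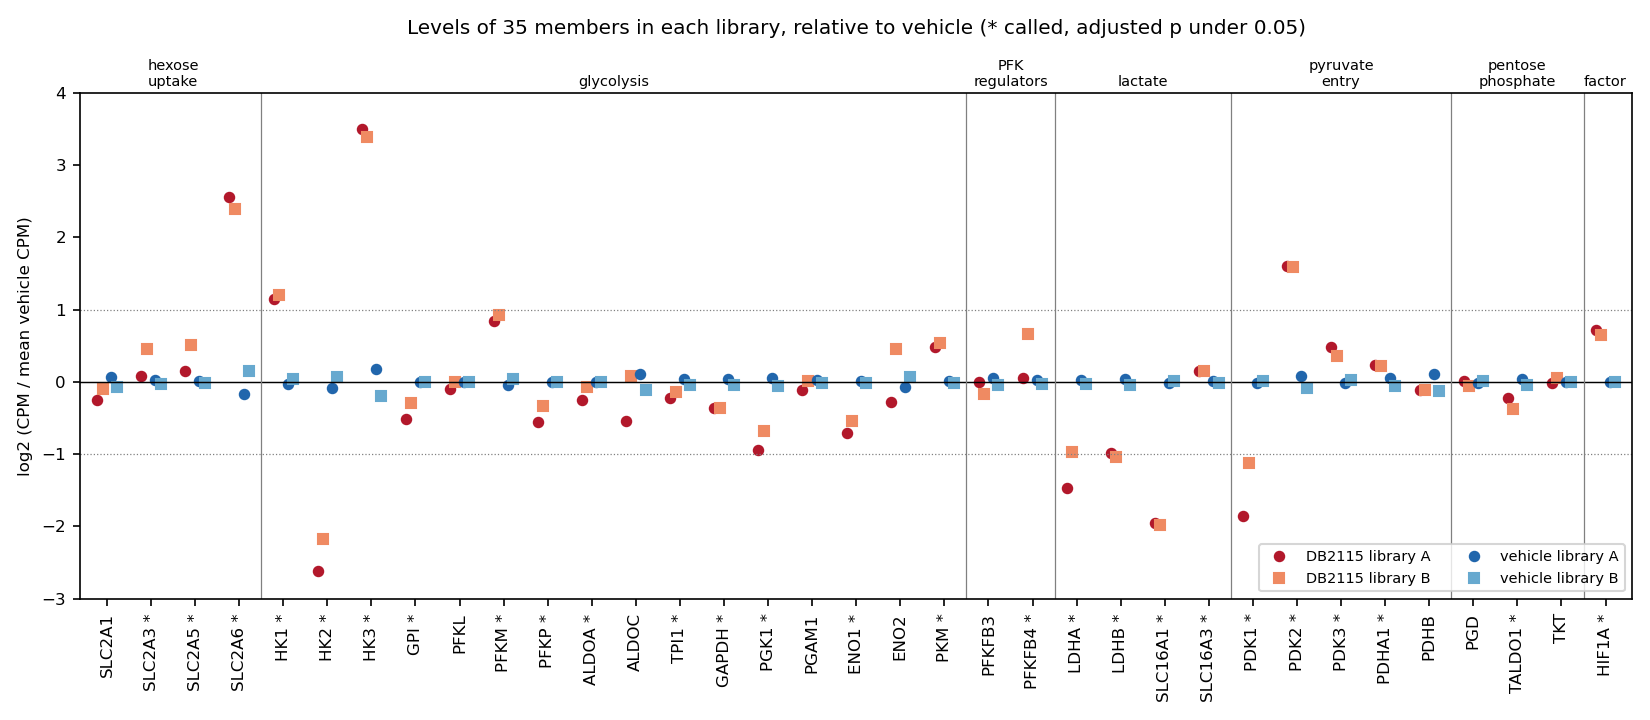
Level of each of the 35 tested members in each library, as log2 of its CPM over the mean CPM of the vehicle libraries, ordered by role from hexose uptake to HIF1A. Red and orange points are DB2115 libraries A and B, blue points vehicle libraries, and an asterisk marks an adjusted p under 0.05. HK3 and SLC2A6 stand highest, and HK2, SLC16A1 and PDK1 lowest.

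Of the 4 hexose transporters, 3 rose and none fell, against 32.7% of all genes higher and 31.3% lower. SLC2A6, a transporter of lysosomal membranes encoded at chr9:133471095-133479137, had 24.5 and 22 CPM in DB2115 libraries A and B, against 3.70 and 4.63 CPM in vehicle libraries A and B. The groups were far apart, and the rise was 5.55-fold (log2 fold change 2.47, SE 0.13, adjusted p = 2.60e-09). SLC2A3 (GLUT3), a high-affinity glucose carrier, had 216 and 281 CPM with DB2115 and 208 and 200 CPM in vehicle. Its log2 rise of 0.28 (adjusted p = 0.0203) rested on DB2115 library B, without which it was 0.07 (adjusted p = 0.448). Without vehicle library B the adjusted p was 0.332. SLC2A5 (GLUT5), a fructose transporter, had 14.0 and 18.0 CPM with DB2115 and 12.8 and 12.5 CPM in vehicle, a log2 change of 0.34 (adjusted p = 0.0257). It too was no longer called without DB2115 library B, at 0.13 (adjusted p = 0.358), nor without vehicle library A (adjusted p = 0.0761) or B (adjusted p = 0.253). SLC2A1 (GLUT1), the basal glucose transporter, had 63.8 and 70.7 CPM with DB2115 and 79.4 and 72.2 CPM in vehicle and did not pass the test (log2 fold change -0.17, adjusted p = 0.0566). Without DB2115 library B it would be called, at -0.26 (adjusted p = 0.00418). With the GC and length offset SLC2A1 was called lower, at -0.38 (adjusted p = 4.47e-04), and SLC2A5 was not called (adjusted p = 0.101). The part of macrophage and neutrophil markers, which were higher with DB2115, in these values was not tested.

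Per kilobase of exon the 4 carriers summed to 57.6 and 69.5 CPM per kb with DB2115 and 53.6 and 51.0 CPM per kb in vehicle, so the groups did not overlap. SLC2A3 held most of that sum in every library, between 60.9% and 65.7% with DB2115 and between 63.1% and 63.8% in vehicle. SLC2A6 held 12% and 8.93% with DB2115 and 1.95% and 2.56% in vehicle. For these and all later shares and ratios, an exact two-sided permutation test of 2 libraries against 2 cannot give a p below 0.333, so they are given as values. The counts for this and the other lists of related genes below stand against 32.7% of all genes higher and 31.3% lower. Among 7 other glucose transporter genes tested, 4 rose and 1 fell, including SLC2A9, the urate and hexose carrier, with 26.5 and 24.5 CPM with DB2115 against 7.94 and 9.40 CPM in vehicle.

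Hexokinase, which traps glucose in the cell as glucose 6-phosphate, changed in isozyme makeup. HK2, the inducible isozyme at chr2:74833981-74893359, had 30.5 and 41.3 CPM with DB2115, against 177 and 196 CPM in vehicle. Both DB2115 libraries were far below both vehicle libraries, a 5.20-fold fall (log2 fold change -2.38, SE 0.11, adjusted p = 1.44e-09). HK1, the isozyme most tissues express, at chr10:69269984-69401884, had 291 and 304 CPM with DB2115 and 128 and 134 CPM in vehicle. This was a 2.27-fold rise with no overlap (log2 fold change 1.18, SE 0.06, adjusted p = 2.61e-09). HK3, the isozyme of myeloid cells at chr5:176880869-176899332, had 15.7 and 14.5 CPM with DB2115 and 1.57 and 1.21 CPM in vehicle. It rose most of all members, 10.9-fold (log2 fold change 3.45, SE 0.16, adjusted p = 1.04e-09).

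Added up per kilobase of exon, the 3 hexokinases gave 56.1 and 59.4 CPM per kb with DB2115 and 49.95 and 54.1 CPM per kb in vehicle, a 1.11-fold difference. Within that sum HK1 held 82.5% and 81.1% with DB2115 and 40.8% and 39.4% in vehicle. HK2 held 8.96% and 11.5% with DB2115, while in vehicle it held the largest share with 58.3% and 59.9%. That lead and the 1.11-fold difference of the sum depend on the length used. HK1 has 6296 bases of merged exons but a longest transcript of 3998 bases, against 6064 and 5772 for HK2. With the longest transcripts as lengths, HK1 and HK2 were close to level in vehicle and the sum differed more between the groups. HK3 remained minor, with 8.51% and 7.44% with DB2115 and 0.953% and 0.680% in vehicle. The ratio of HK1 to HK2, per kilobase of exon, was 9.21 and 7.08 with DB2115 and 0.699 and 0.659 in vehicle, an 11.9-fold change of the ratio. The HK2 window shown above, 1 of 2 listed for the gene, holds 2 E-boxes. The HK1 window shown is the one with the PU.1-type motif among 7 listed. HK3 has 1 listed window, with no exact match to either motif, so the isozymes were not searched over equal lengths.

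**Figure D2:**
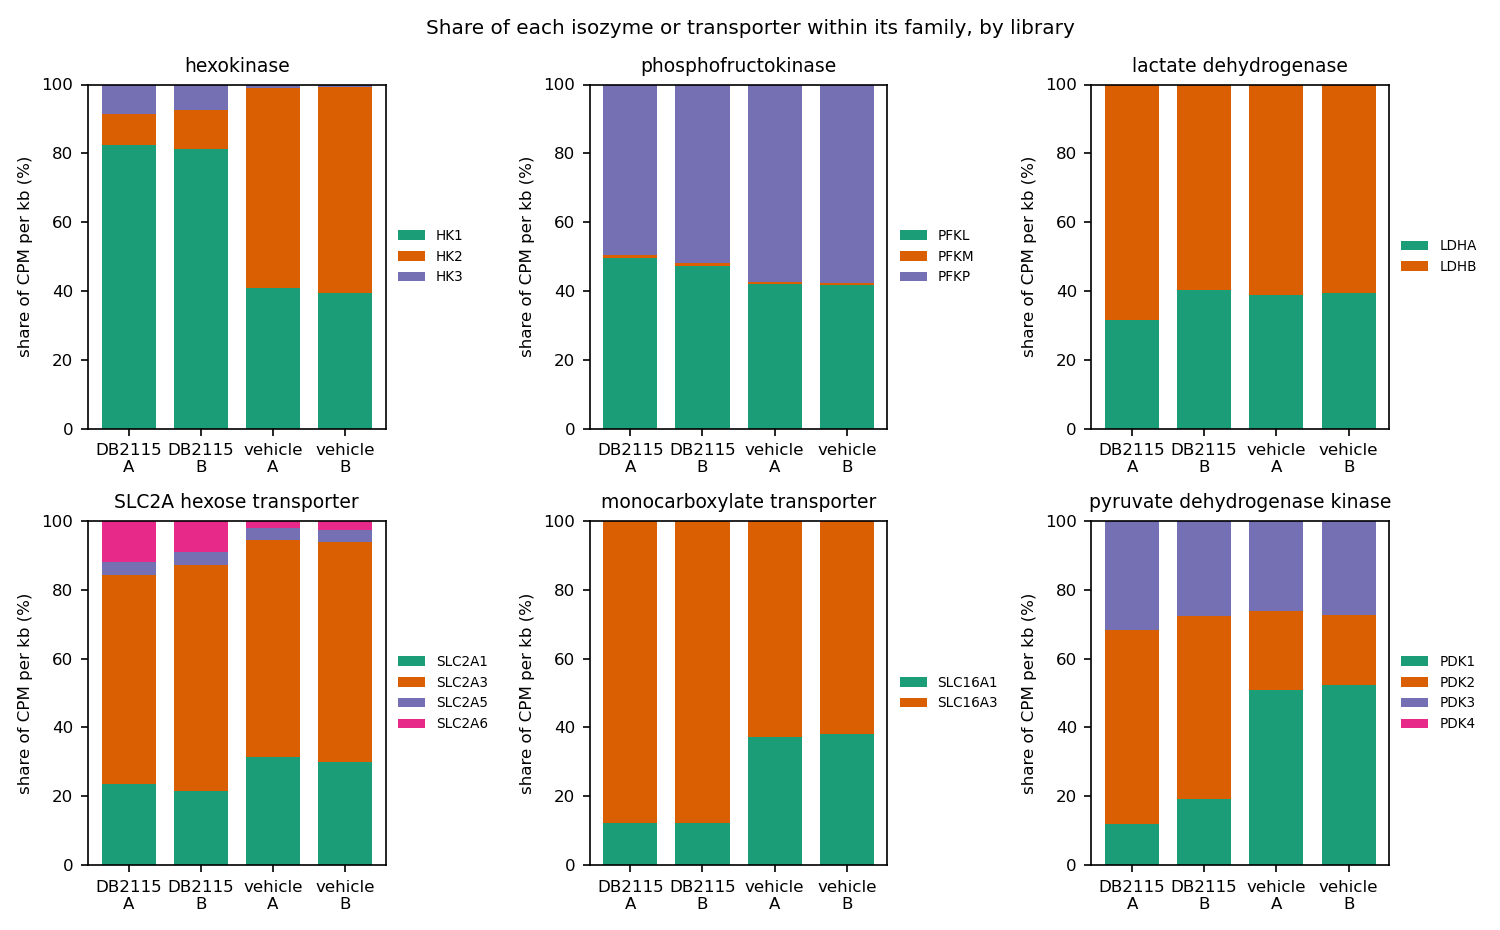
Share of each isozyme or transporter in the summed CPM per kb of its family, in percent, for DB2115 libraries A and B and vehicle libraries A and B. Hexokinase, monocarboxylate transporter and pyruvate dehydrogenase kinase differ in makeup between the groups, while lactate dehydrogenase overlaps.

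Of the 4 members that encode the isomerase and the phosphofructokinases, 2 fell, 1 rose and 1 did not pass the test. Over all genes tested, 31.3% were lower and 32.7% higher. GPI, which turns glucose 6-phosphate into fructose 6-phosphate, had 518 and 605 CPM with DB2115 and 744 and 741 CPM in vehicle and fell by 0.40 on the log2 scale (adjusted p = 4.05e-04). Of the phosphofructokinases, which commit the sugar to glycolysis, the platelet isozyme PFKP had 178 and 207 CPM with DB2115 and 260 and 262 CPM in vehicle. PFKP fell by 0.44 on the log2 scale (adjusted p = 1.41e-04). The liver isozyme PFKL had 328 and 349 CPM with DB2115 and 351 and 350 CPM in vehicle and did not pass the test (log2 fold change -0.05, adjusted p = 0.487), although both DB2115 libraries were just below. The GC and length offset would call it lower, at -0.54 (adjusted p = 1.76e-06). The muscle isozyme PFKM was the rarest and rose, with 5.25 and 5.56 CPM with DB2115 and 2.85 and 3.03 CPM in vehicle (log2 fold change 0.88, adjusted p = 5.76e-04). PFKM shares exon sequence with SENP1 on the other strand, whose counts were 910% of its own, and strandedness is not known here, so the value is uncertain.

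PFKFB3 and PFKFB4 make and break fructose 2,6-bisphosphate, the activator of phosphofructokinase. PFKFB4 had 32.0 and 49.0 CPM with DB2115 and 31.6 and 30.2 CPM in vehicle. It was called higher (log2 fold change 0.39, adjusted p = 0.0309), but only DB2115 library B stood clear of vehicle, and without it the change was 0.04 (adjusted p = 0.735). The call was also lost without vehicle library A (adjusted p = 0.0601) or B (adjusted p = 0.368), and without DB2115 library A the change was 0.65. PFKFB3 overlapped between the groups, with 57.2 and 51.4 CPM with DB2115 and 59.4 and 55.5 CPM in vehicle, and did not pass the test (log2 fold change -0.08, adjusted p = 0.357). It would be called lower with the GC and length offset, at -0.35 (adjusted p = 7.18e-04). PFKFB2 had 12 counts over the 4 libraries and was not tested.

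Aldolase and triosephosphate isomerase produce and interconvert the triose phosphates. ALDOA, the main aldolase, had 258 and 292 CPM with DB2115 and 306 and 308 CPM in vehicle (log2 fold change -0.16, adjusted p = 0.0491). TPI1 had 581 and 615 CPM with DB2115 and 700 and 659 CPM in vehicle (log2 fold change -0.18, adjusted p = 0.0235). Both falls were small and sat at the threshold: with upper-quartile scaling, which moves the median of all genes by 0.09, the adjusted p was 0.409 for ALDOA and 0.242 for TPI1. Leaving out DB2115 library A, vehicle library A or vehicle library B ended both calls. Without DB2115 library A the log2 fold change was -0.09 for ALDOA and -0.16 for TPI1. Without vehicle library A it was -0.18 for ALDOA and -0.15 for TPI1, and without vehicle library B -0.18 and -0.25. Without DB2115 library B both falls were larger than in the main fit, at -0.26 for ALDOA and -0.24 for TPI1. ALDOC, the brain-type aldolase, had 38.8 and 60.0 CPM with DB2115 and 61.0 and 52.1 CPM in vehicle, so its groups overlapped (log2 fold change -0.20, adjusted p = 0.273). Without DB2115 library B it would be called lower, at -0.55 (adjusted p = 1.72e-09), and without DB2115 library A its value was 0.07 (adjusted p = 0.508).

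Below the triose phosphates, GAPDH, PGK1 and ENO1 fell, and PKM rose against them. GAPDH, the glyceraldehyde phosphate dehydrogenase often used as a reference transcript, had 4017 and 4021 CPM with DB2115 and 5295 and 5042 CPM in vehicle. It fell 1.29-fold (log2 fold change -0.36, SE 0.07, adjusted p = 5.44e-04), with no overlap. PGK1, the first step that makes ATP, had 434 and 521 CPM with DB2115 and 863 and 800 CPM in vehicle, a 1.74-fold fall (log2 fold change -0.80, SE 0.08, adjusted p = 2.43e-06). ENO1, the main enolase, had 1920 and 2164 CPM with DB2115 and 3167 and 3131 CPM in vehicle, a 1.54-fold fall (log2 fold change -0.62, SE 0.07, adjusted p = 9.14e-06). PKM, the pyruvate kinase that closes glycolysis, had 1853 and 1923 CPM with DB2115 and 1339 and 1320 CPM in vehicle. PKM rose 1.42-fold (log2 fold change 0.51, SE 0.07, adjusted p = 1.72e-05). Per kilobase of exon it was 0.594 and 0.547 times ENO1 with DB2115 and 0.260 times ENO1 in both vehicle libraries, a 2.19-fold change of the ratio. The ratios, but not their change, depend on the length used. PKM has 8571 bases of merged exons but a longest transcript of 3016 bases, against 5276 and 2548 for ENO1. The counts do not separate the M1 and M2 splice forms of PKM.

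PGAM1, the phosphoglycerate mutase that sits between PGK1 and ENO1, had 867 and 942 CPM with DB2115 and 951 and 925 CPM in vehicle. Its groups overlapped and it did not pass the test (log2 fold change -0.05, adjusted p = 0.523), nor was it called under any alternative tried. ENO2, the neuronal enolase, was rare, with 3.96 and 6.55 CPM with DB2115 and 4.55 and 5.01 CPM in vehicle (log2 fold change 0.13, adjusted p = 0.609). Its value followed the DB2115 library used, being 0.43 without library A (adjusted p = 0.0405) and -0.28 without library B (adjusted p = 0.271).

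Lactate dehydrogenase, which turns pyruvate into lactate and back, was lower in both its subunits. LDHA, at chr11:18394388-18408425, had 553 and 778 CPM with DB2115 and 1554 and 1506 CPM in vehicle, a 2.30-fold fall (log2 fold change -1.20, SE 0.12, adjusted p = 1.55e-06). LDHB, at chr12:21635342-21757857, had 578 and 558 CPM with DB2115 and 1181 and 1109 CPM in vehicle, a 2.02-fold fall (log2 fold change -1.01, SE 0.07, adjusted p = 2.46e-08). In neither gene did the groups overlap, but LDHA differed more between the DB2115 libraries. The share of LDHA in the pair, per kilobase of exon, was 31.5% and 40.1% with DB2115 and 38.7% and 39.5% in vehicle, so the groups overlapped in their makeup. The size of that share depends on the length used, and in CPM LDHA was above LDHB in both vehicle libraries. Their sum was 283 and 312 CPM per kb with DB2115 and 646 and 614 CPM per kb in vehicle, 2.12-fold lower.

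Lactate leaves or enters the cell through SLC16A1 (MCT1) and through SLC16A3 (MCT4), the lactate exporter of glycolytic cells. SLC16A1, at chr1:112911847-112957013, had 35.8 and 35.1 CPM with DB2115 and 138 and 140 CPM in vehicle. It fell 3.91-fold and had the smallest adjusted p of all members (log2 fold change -1.97, SE 0.06, adjusted p = 5.34e-11). SLC16A3 had 431 and 432 CPM with DB2115 and 393 and 386 CPM in vehicle, a small rise (log2 fold change 0.15, adjusted p = 0.0394). That rise lost its call without any one of the 4 libraries, with an adjusted p between 0.141 and 0.250, and turned to -0.30 (adjusted p = 4.59e-04) with the GC and length offset. CSNK1D on the other strand, which shares exon sequence with SLC16A3, had counts equal to 33.2% of its own. The share of SLC16A1 in the pair was 12.3% and 12.1% with DB2115 and 37.2% and 37.9% in vehicle. The ratio of SLC16A3 to SLC16A1 on the same scale was 7.12 and 7.27 with DB2115 and 1.69 and 1.64 in vehicle, a 4.33-fold change of the ratio. Of 5 other tested genes of lactate and pyruvate transport, 4 fell and none rose, against 31.3% of all genes lower and 32.7% higher. They include EMB, the chaperone embigin, with 111 and 112 CPM with DB2115 and 241 CPM in both vehicle libraries, and the mitochondrial pyruvate carrier subunits MPC1 (log2 fold change -0.42) and MPC2 (log2 fold change -0.36).

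**Figure D3:**
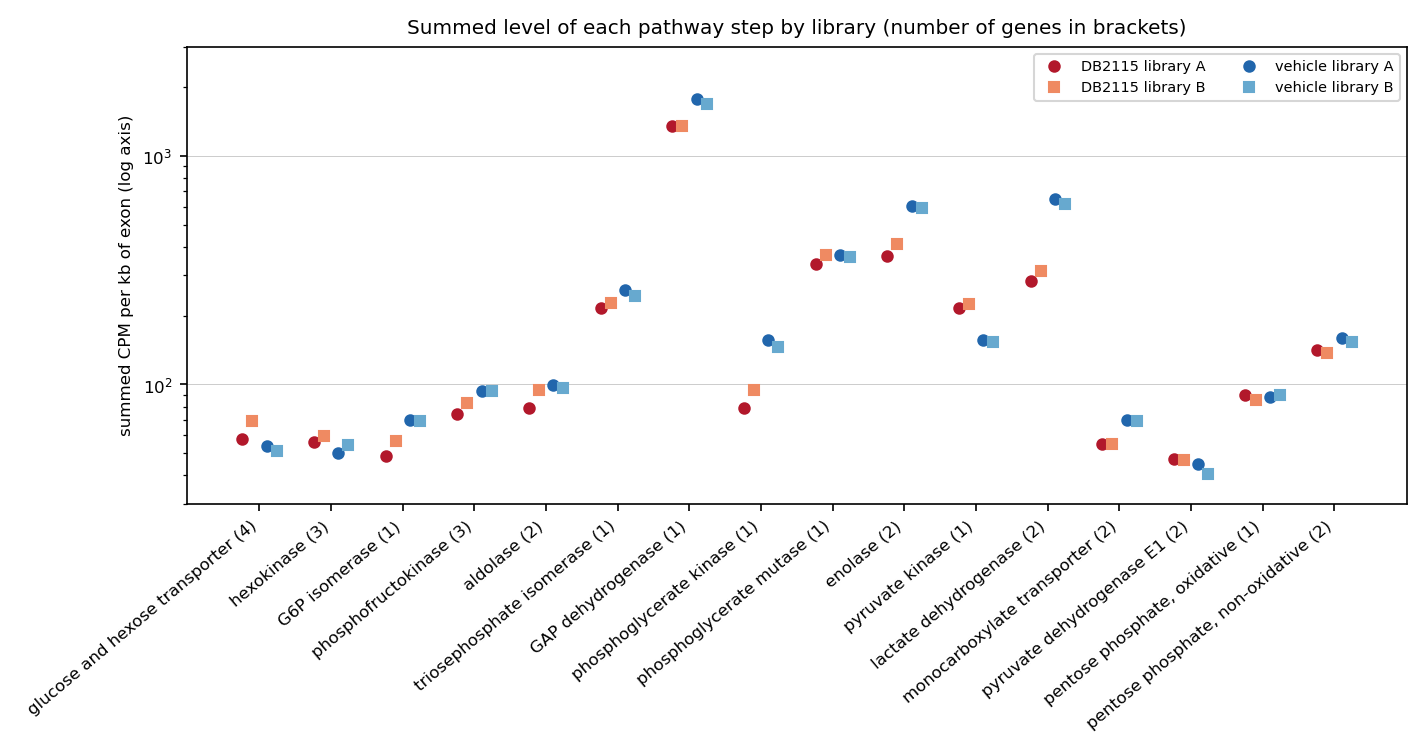
Summed level of each pathway step in CPM per kb of exon on a log axis, by library, with the number of genes in brackets. DB2115 points are red and orange, vehicle points blue. Lactate dehydrogenase (283 and 312 CPM per kb with DB2115 against 646 and 614 CPM per kb in vehicle), phosphoglycerate kinase and enolase are lower with DB2115, pyruvate kinase is higher, and hexokinase is nearly level.

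The pyruvate dehydrogenase kinases, which inactivate the pyruvate dehydrogenase complex, also changed places. PDK1, at chr2:172555373-172608669, had 13.6 and 22.7 CPM with DB2115 and 48.7 and 49.96 CPM in vehicle, a 2.72-fold fall (log2 fold change -1.44, SE 0.16, adjusted p = 4.27e-06). PDK2, at chr17:50094737-50112152, had 23.4 and 23.2 CPM with DB2115 and 8.11 and 7.24 CPM in vehicle, a 3.04-fold rise (log2 fold change 1.60, SE 0.10, adjusted p = 1.86e-08). The groups overlapped in neither gene. PDK3 rose less, with 11.9 and 10.8 CPM with DB2115 and 8.37 and 8.62 CPM in vehicle (log2 fold change 0.42, adjusted p = 5.82e-03), and its adjusted p without vehicle library B was 0.0550. PDK4, with 3 counts in all, was not tested. Per kilobase of exon PDK1 held 12.1% and 19.2% of the kinase sum with DB2115 and 50.8% and 52.2% in vehicle, and PDK2 held 56.2% and 53.3% with DB2115 and 23.0% and 20.6% in vehicle. The ratio of PDK2 to PDK1, also per kilobase, was 4.66 and 2.78 with DB2115 and 0.452 and 0.394 in vehicle, an 8.53-fold change. The kinase sum was 7.58 and 7.94 CPM per kb with DB2115 and 6.45 and 6.42 CPM per kb in vehicle.

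The target of these kinases, the E1 enzyme, moved little. PDHA1, its catalytic alpha subunit, had 156 and 155 CPM with DB2115 and 137 and 128 CPM in vehicle (log2 fold change 0.23, adjusted p = 5.53e-03), and without vehicle library B the adjusted p was 0.137. PDHB, the beta subunit, overlapped, with 57.9 CPM in both DB2115 libraries and 67.4 and 57.2 CPM in vehicle (log2 fold change -0.10, adjusted p = 0.271). Of 7 other tested genes, for the complex, its phosphatases and pyruvate carboxylase, 2 rose and 4 fell. The 1 that did not pass the test was PC, the carboxylase gene. DLAT, the E2 core subunit, fell by 1.07 on the log2 scale (adjusted p = 2.05e-08), and PDP1, a phosphatase that reactivates the complex, rose by 0.81 (adjusted p = 6.92e-06).

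Of the 3 pentose phosphate members, 1 fell and none rose, against 31.3% of all genes lower and 32.7% higher. PGD, which releases carbon dioxide from 6-phosphogluconate and makes NADPH, had 266 and 255 CPM with DB2115 and 262 and 266 CPM in vehicle (log2 fold change -0.02, adjusted p = 0.792). TKT, the transketolase of the sugar-exchanging branch, had 559 and 591 CPM with DB2115 and 567 and 569 CPM in vehicle (log2 fold change 0.02, adjusted p = 0.815), a value that turned to -0.31 (adjusted p = 4.85e-04) with the GC and length offset. TALDO1, the transaldolase, had 250 and 226 CPM with DB2115 and 301 and 283 CPM in vehicle and fell by 0.29 on the log2 scale (adjusted p = 1.58e-03). Beyond the members, all 11 tested genes of the pathway and its outlets passed the test, 4 higher and 7 lower, against 32.7% of all genes higher and 31.3% lower. RPIA, the ribose phosphate isomerase, had 26.7 and 21.7 CPM with DB2115 and 69.2 and 62.1 CPM in vehicle (log2 fold change -1.44, adjusted p = 3.15e-08). RPE, the epimerase (log2 fold change -1.01), and PRPS1, which turns ribose phosphate into the nucleotide precursor PRPP (log2 fold change -1.11), were also lower.

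HIF1A, the oxygen-sensitive subunit of HIF-1, had 86.0 and 82.5 CPM with DB2115 and 52.5 CPM in both vehicle libraries. It rose 1.60-fold (log2 fold change 0.68, SE 0.06, adjusted p = 8.53e-07), and HIF-1 activity, which is set mainly by the stability of the protein, was not measured. Among 6 tested genes of HIF subunits and oxygen sensing, 4 rose and none fell, led by EPAS1 (HIF-2 alpha), with 72.7 and 69.1 CPM with DB2115 and 19.8 and 19.9 CPM in vehicle. ARNT, the partner subunit, had 136 and 133 CPM with DB2115 and 75.01 and 76.2 CPM in vehicle. Of 21 tested HIF target genes outside glycolysis, 6 rose and 12 fell, against 32.7% of all genes higher and 31.3% lower. Their median log2 fold change was -0.49, against 0.03 over all genes. HILPDA, a lipid droplet protein, had 6.65 and 6.62 CPM with DB2115 and 35.9 and 32.1 CPM in vehicle (log2 fold change -2.36), while NDRG1, a stress-responsive gene, had 205 and 354 CPM with DB2115 and 75.5 and 70.4 CPM in vehicle (log2 fold change 1.94).

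The DB2115 libraries differed from each other in these genes. Library B was at least 0.3 log2 units above library A in 8 of 35 members (22.9%), against 12.3% of all genes tested. The 8 members were PDK1, ENO2, ALDOC, PFKFB4, LDHA, HK2, SLC2A3 and SLC2A5. Library A was that far above B in no member, against 1870 of all 17219 genes. Among the 21 HIF targets B was that far above A in 13 (61.9%), and A above B in 1. The list of HIF targets summed to 1213 CPM in DB2115 library A and 1692 CPM in DB2115 library B, with 1758 and 1697 CPM in vehicle libraries A and B. In vehicle, library B was that far above library A in 1 member (2.86%), in 0 HIF targets and in 13.6% of all genes. The falls of PDK1, LDHA and HK2 held with either DB2115 library alone, with log2 fold changes of -1.87, -1.48 and -2.62 without library B, and -1.14, -0.99 and -2.19 without library A. What set the DB2115 libraries apart was not tested.

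**Figure D4:**
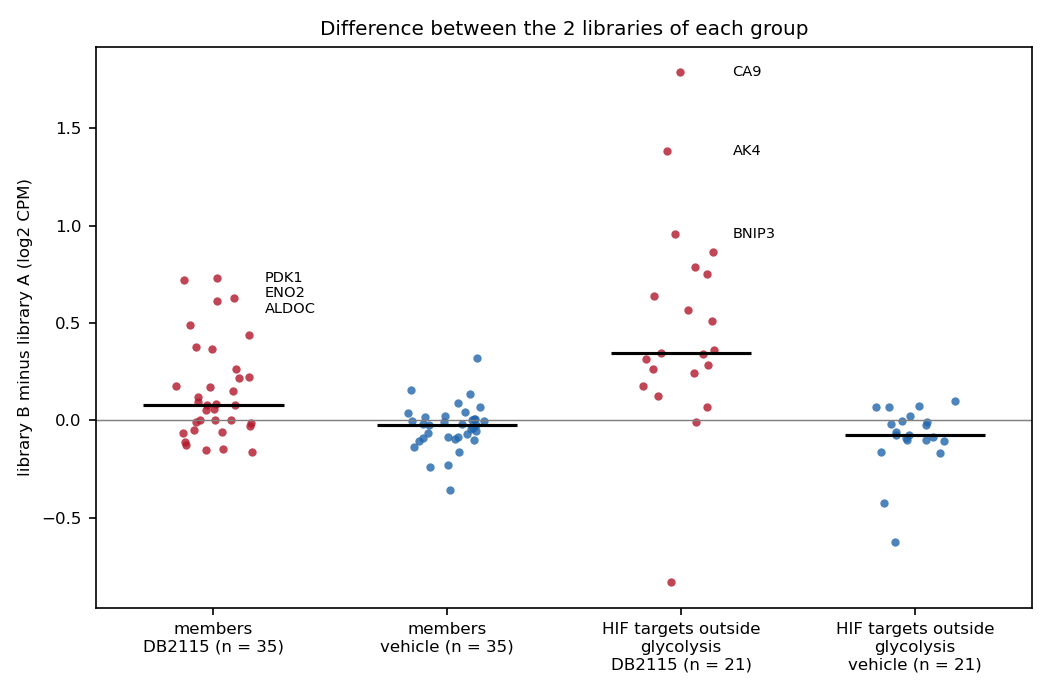
Library B minus library A in log2 CPM for the 35 tested members and 21 HIF target genes outside glycolysis, with DB2115 in red left of vehicle in blue. Each point is a gene, lines are medians, and the 3 genes with the largest gap in DB2115 are named. The HIF targets of DB2115 lie mostly above 0 (median 0.35), the members less so (median 0.08), and the vehicle medians are near 0.

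Of 21 tested regulators of glycolytic transcription, 10 rose, 5 fell and 6 did not pass the test. MYC had 24.3 and 19.4 CPM with DB2115 and 564 and 543 CPM in vehicle (log2 fold change -4.66, SE 0.10). Its partner MAX also fell (log2 fold change -0.59), while MXD4 and MXD1, which pair with MAX and oppose MYC, rose (log2 fold changes 1.45 and 0.49). TXNIP, which lowers glucose uptake by removing transporters from the cell surface, had 90.8 and 94.5 CPM with DB2115 and 58.2 and 55.0 CPM in vehicle. FOXO3, a transcription factor active when growth signalling is low, rose by 1.00 on the log2 scale (adjusted p = 3.14e-08). Whether these regulators bear on the members was not tested.

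Genes that feed glycolysis from other sugars were also mixed. Of 27 tested genes of glycogen, fructose, mannose and galactose metabolism, 9 rose, 9 fell and 9 did not pass the test. PYGL, the glycogen phosphorylase of liver and blood cells, had 137 and 147 CPM with DB2115 and 383 and 385 CPM in vehicle (log2 fold change -1.44, adjusted p = 5.11e-10). GALM, the galactose mutarotase, had 77.6 and 75.8 CPM with DB2115 and 31.3 and 31.1 CPM in vehicle (log2 fold change 1.30, adjusted p = 2.72e-09). Among 16 other genes of glycolysis and gluconeogenesis tested, 5 rose and 8 fell. ADPGK, a glucokinase that uses ADP, had 65.8 and 60.4 CPM with DB2115 and 102 CPM in both vehicle libraries (log2 fold change -0.69). TIGAR, which breaks down fructose 2,6-bisphosphate, had 8.63 and 8.67 CPM with DB2115 and 14.3 and 13.8 CPM in vehicle (log2 fold change -0.70). Among the genes that rose, ENO3, another enolase, had 11.7 and 10.1 CPM with DB2115 and 6.04 and 6.30 CPM in vehicle (log2 fold change 0.82).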

How the data were processed

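RNA sequencing counts of MOLM-13 cells were analysed. Per the submitters' processing notes, FastQC, STAR, DESeq2 and build hg38 were used. The annotation, the counting tool and strand settings are not given in the sources used. The authors deposited raw read counts per gene, not normalised, in 6 columns. In each group the third column was the sum of the other columns within 1% in 98.5% of genes with at least 200 counts, and it was left out.

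Of 58381 identifiers, 58261 were matched by stable identifier to GENCODE release 29 on GRCh38, which gave symbols, coordinates and exon lengths. The members and gene lists were chosen with earlier results of these data known. Counts were fitted with edgeR 4.0.16 in R 4.3.3 (TMM, filterByExpr with minimum count 10 and minimum total 15, glmQLFit and glmQLFTest) on 4 libraries with treatment as the only term, with Benjamini-Hochberg adjustment over 17219 genes. The common biological coefficient of variation was 6.33%. Each standard error is the log2 fold change divided by the square root of its F statistic. Shares and sums used CPM per kilobase of merged exons, with exact permutation tests in scipy 1.17.1. Columns of a group differed beyond sampling noise (median chi-square per gene 1.91 for DB2115 and 1.48 for vehicle, against 0.455). All members were described. From each list up to 4 called genes with the smallest adjusted p and a mean of at least 5 CPM could be named, and any called gene from the list of regulators. A gene selected this way is not reported. An exon of another gene overlapped 18 members on the other strand and 8 on the same strand; those named are the ones with the largest share of counts. Counts of annotated pseudogenes named by a member's symbol followed by P, with or without a number, came to at most 0.77% of that member's own. Pseudogenes with other names were not counted. Alternatives were other scaling factors and filters, DESeq2 1.42.0, limma-voom (limma 3.58.1), each library left out, a block on the column letters, no mitochondrial genes, an offset for GC content and length, and a threshold of 0.01. The fit was tested on simulated counts of 2 against 2 libraries. It recovered 52% of 1.5-fold, 66% of 2-fold, 86% of 4-fold and 94% of 8-fold changes, and 4 of its 153 calls were false. A gene that did not pass the test may therefore still differ.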

Additional observations from a re-analysis of the deposited data

How the results depend on the processing

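With 2 libraries per group only changes well above the spread could be resolved, and members with few counts were not tested. Over 15 alternatives and 35 members, 471 of 525 values kept their call or stayed uncalled, 41 lost the call and 11 gained one. Under all 15 alternatives, 21 members kept their call or stayed uncalled. Values that stayed uncalled could change sign: among those 21, PGAM1 ranged from -0.13 to 0.04, PDHB from -0.24 to 0.01 and PGD from -0.11 to 0.08. The remaining 2 values were called in the direction opposite to that of the main fit. The 2 were SLC16A3 (-0.30) and TKT (-0.31), both with the GC and length offset. That offset moved the members' median to -0.31, with 10 members higher and 19 lower. Over all 17200 genes tested with it the median was 0.003, with 5426 higher and 5693 lower. The cause was not tested. Members higher numbered 7 to 13 and members lower 11 to 15 when each library was left out in turn, with 7 without vehicle library B. The column letters did not pair the libraries (r = 0.0159 over 17219 genes), and with a replicate block 13 members were higher and 15 lower, ALDOC and SLC2A1 being added. DESeq2 gave 10 higher and 12 lower, without PFKFB4, SLC2A3, SLC2A5 and ALDOA. For limma-voom the counts were 12 and 13, for upper-quartile scaling 13 and 11, and for a threshold of 0.01 they were 9 and 11. Of all genes tested, 66.3% were called with the replicate block, 57.4% with DESeq2 and 64.3% with limma-voom. The share was 63.9% with upper-quartile scaling and 54.2% at the threshold of 0.01. Changes in family share, in percentage points, depended on the length used: without length correction HK1 gave 44.2, HK3 3.91, SLC16A1 -18.7, PDK1 -41.4 and SLC2A6 5.25, and with the longest transcript HK1 gave 36.9, HK2 -42.0, HK3 5.08 and SLC16A1 -19.9. With merged exons these were 41.7 for HK1, -48.9 for HK2, 7.16 for HK3, -25.4 for SLC16A1, -35.9 for PDK1 and 8.22 for SLC2A6.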
